A study of Rattus norvegicus with 9 samples.

Results

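The 10 genes described here encode adhesion molecules of the immunoglobulin superfamily and were followed across 3 groups of cultured rat cells: L1cam, Chl1, Nrcam, Nfasc, Ncam1, Cadm1, Cadm2, Cadm4, Igsf11 and Thy1. They were picked by name, as features of the array whose annotation gives that gene symbol alone. Of the 10 genes, 8 were measured, each by 1 feature, among 14506 genes measured in this way. Chl1 and Cadm2 had no such feature and were not analysed here.

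All cells came from adult Sprague Dawley rats and were measured on Affymetrix Rat Gene 1.0 ST arrays, with 3 samples per group that the design text calls independent, without naming animals; p-values measure the spread between these samples. Precursor cells of dorsal trunk skin (skin-derived precursors, SKPs) were grown as spheres from digested skin and collected after passaging. SKP-derived Schwann cells were grown from such spheres plated in medium for Schwann cells. Sciatic nerve Schwann cells were grown from digested nerve in the same kind of medium, and both kinds of Schwann cell were passaged once and collected at confluence. No transgene, deletion or drug is named for any group. The tissue field reads dermis for all 9 arrays, so the groups were taken from the titles. The series addresses how Schwann cells obtained from skin compare with those of nerve and with the precursors. The SKP arrays are labelled as a renewed analysis of earlier deposited samples, so that a batch of these arrays and the SKP group cannot be told apart.

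Immunoglobulin adhesion molecules bind partners on neighbouring cells, or their own kind, through extracellular immunoglobulin domains. Those of the L1 family (L1cam, Chl1, Nrcam, Nfasc) join the membrane to the spectrin skeleton through ankyrins, and Ncam1 can carry polysialic acid, which weakens its adhesion. In peripheral nerve, L1cam and Ncam1 are known from Schwann cells that do not form myelin and from immature ones. The nectin-like Cadm proteins link Schwann cells to axons along the internode, with Cadm4 on the glial and Cadm3 on the axonal side, and glial Nfasc and Nrcam serve at the paranode and the node of Ranvier. Thy1 is a small lipid-anchored member of the surface of fibroblasts and many neurons.

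The values are log2 expression values, so a difference of 1 is a 2-fold change. They measure RNA of whole cultures, in which fewer cells of a type and less RNA per cell cannot be told apart. The labelled cell types were checked on markers. The mean level of 9 Schwann cell markers ranged from 5.41 to 5.48 over the SKP arrays, from 9.73 to 10.66 over the SKP-derived arrays and from 10.68 to 10.83 over the nerve arrays. The mean of 11 fibroblast markers was 10 to 11.89 in SKPs, 7.86 to 9.88 in SKP-derived and 8.61 to 9.70 in nerve Schwann cells. Macrophage markers (10 genes) averaged 7.73 in SKP array 1, against 6.19 and 5.52 in the other SKP arrays and 5.14 to 5.94 in the Schwann cell arrays. The nerve arrays stood apart from the rest in the deposited values. Any pair of them had the same value to the last digit at 1560 to 1967 of 29214 features, against 1 to 23 features in the 15 pairs without a nerve array and at most 2 where a nerve array was paired with one of another group. The median SD of a gene within the group was 0.11 in nerve Schwann cells and 0.23 in each of the others. The median gene was 0.46 higher in nerve Schwann cells than in SKPs and -0.45 in SKP-derived relative to nerve Schwann cells, while SKP-derived Schwann cells and SKPs differed by -0.01. None of the 8 members had equal values in any pair of arrays. The members' differences from the nerve group are therefore given with their value after cyclic loess, a rescaling between arrays after which these medians were -0.03, -0.02 and -0.03. For other genes the value after cyclic loess is given where it ended a call.

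Promoter windows are shown for Cadm4 and Igsf11, since these members rose together with the largest changes among those with an entry in the RefSeq promoter table (build GRCr8). The windows hold the 250 bases before the annotated start, on the gene's own strand. Cadm4 lies on the plus strand (chr1:89202839-89203088) and Igsf11 on the minus strand (chr11:75373905-75374154). Capitals mark ACAAAG or ACAATG, core letters bound by SOX factors, on either strand.
Cadm4: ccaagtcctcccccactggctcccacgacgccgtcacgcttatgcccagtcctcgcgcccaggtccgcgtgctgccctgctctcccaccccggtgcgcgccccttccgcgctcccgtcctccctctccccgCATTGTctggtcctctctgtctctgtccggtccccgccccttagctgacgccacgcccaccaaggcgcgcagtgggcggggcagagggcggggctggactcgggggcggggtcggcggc
Igsf11: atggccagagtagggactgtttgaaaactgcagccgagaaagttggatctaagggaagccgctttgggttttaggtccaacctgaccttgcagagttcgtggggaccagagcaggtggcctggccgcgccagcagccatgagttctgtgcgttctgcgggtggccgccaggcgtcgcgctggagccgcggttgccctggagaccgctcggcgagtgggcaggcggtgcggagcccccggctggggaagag
The Cadm4 window has 74.0% G and C and 1 match, ACAATG read on the opposite strand, from 119 to 114 bases before the start. The Igsf11 window has 64.8% G and C and no match. Either core occurs in 25.3% of the 33469 windows of the same length in the table, so a match in 1 of these windows is a description only. Other letters were searched on both strands as well. GCGNGGGCG (EGR factors, 4.29% of all windows) and GGAATG (TEAD factors, 12.1%) are in neither window, and CANNTG (the E-box, 65.5%) is in that of Igsf11. No match says only that these letters are not in these bases.

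Of the 8 members, 6 were far more abundant in both kinds of Schwann cell than in SKPs, and the SKP-derived and nerve cells were close to each other on most of them. L1cam, Cadm4 and Igsf11 showed the largest rises, Nrcam, Ncam1 and Cadm1 smaller ones. Nfasc passed no test, and Thy1 went the other way. Every p-value of a gene below is limma's, adjusted with Benjamini-Hochberg over the 14506 genes, and a gene is called at an adjusted p under 0.05. For the step from SKPs to SKP-derived Schwann cells, 6 of 8 members were called, all 6 higher, where 41.6% of all genes were called, 19.3% higher and 22.3% lower. After cyclic loess 6 members were again called higher, where 42.5% of all genes were called, 18.6% higher and 23.9% lower. The groups did not overlap for these 6 members, nor for 47.9% of all genes. With nerve Schwann cells against SKPs, 7 of 8 were called, 6 higher and Thy1 lower, where 64.6% of all genes were called, 49.7% higher and 14.9% lower. After cyclic loess these counts were 6 and 1 again, where 48% of all genes were called, 22.4% higher and 25.6% lower. The groups did not overlap for these 7 members, nor for 73.5% of all genes. As deposited, the median member differed from SKPs by 2.68 in SKP-derived cells and by 2.10 in nerve cells, against -0.01 and 0.46 for the median gene. These comparisons share the 3 SKP arrays.

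**Figure D1:**
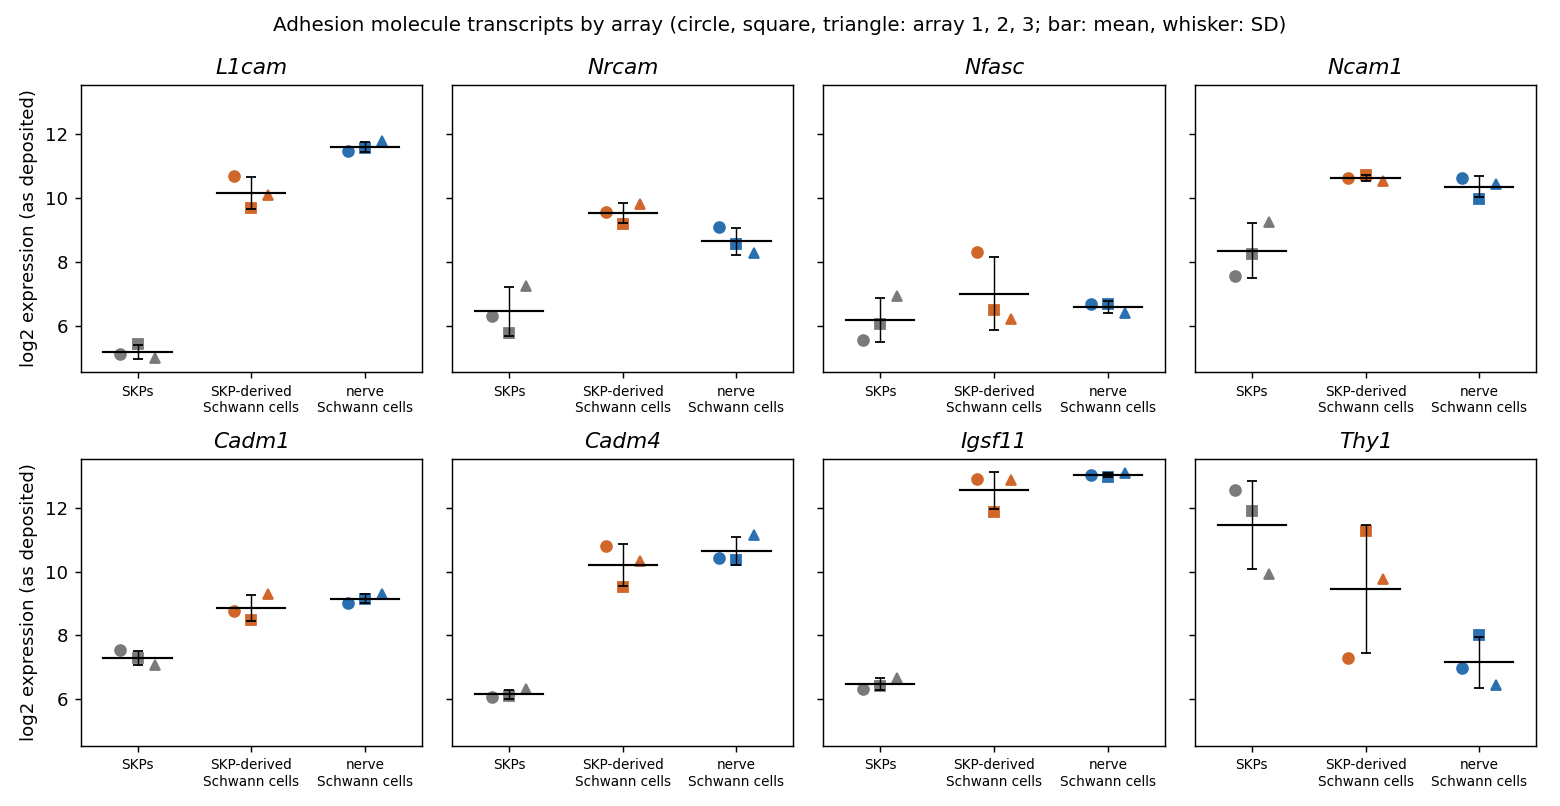
Log2 expression as deposited (vertical axis) of the 8 measured members in each of the 9 arrays, by cell group (horizontal axis). Points are single arrays, horizontal bars are group means and whiskers are SD (n = 3). All 6 Schwann cell arrays lie above all 3 SKP arrays for L1cam, Nrcam, Ncam1, Cadm1, Cadm4 and Igsf11, while the groups overlap for Nfasc and the Thy1 points spread widely within groups.

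L1cam, the founding member of the L1 family, had values of 5.11, 5.42 and 4.99 in SKPs, 10.68, 9.69 and 10.09 in SKP-derived Schwann cells, and 11.46, 11.56 and 11.78 in nerve Schwann cells. The groups did not overlap and stood in the order SKPs, SKP-derived and nerve Schwann cells. SKP-derived Schwann cells exceeded SKPs by 4.98 (SE 0.24, 31.6-fold, adjusted p = 2.04e-06) and nerve Schwann cells exceeded SKPs by 6.43 (SE 0.24, adjusted p = 3.84e-07; 6.17 after cyclic loess). L1cam was also the only member called between the Schwann cell groups. It was lower in SKP-derived than in nerve Schwann cells by 1.45 as deposited (log2 difference -1.45, 95% interval -1.99 to -0.90, adjusted p = 0.00315). Of all genes 43.7% were called in that comparison as deposited, 42.3% lower and 1.33% higher. After cyclic loess 1.33% of all genes were called, and L1cam differed by -1.19 and was not among them (adjusted p = 0.0505). It was called after quantile normalisation (-1.39, adjusted p = 0.0272), which called 1.65% of all genes, and after median centring (-1.09, adjusted p = 0.0447), which called 3.67%.

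Nrcam, a relative of L1cam that helps to gather sodium channels at nodes, had values of 6.31, 5.76 and 7.25 in SKPs, 9.55, 9.19 and 9.82 in SKP-derived Schwann cells, and 9.10, 8.56 and 8.26 in nerve Schwann cells. It was highest in the SKP-derived cells, and the lowest of their arrays lay just above the highest nerve array. It rose by 3.08 over SKPs in SKP-derived Schwann cells (SE 0.36, 8.45-fold, adjusted p = 0.000173) and by 2.20 in nerve Schwann cells (SE 0.36, adjusted p = 0.000692; 1.91 after cyclic loess). SKP-derived exceeded nerve cells by 0.88 (95% interval 0.06 to 1.70) and was not called (adjusted p = 0.0747; 1.21 after cyclic loess, adjusted p = 0.111). Over the fits without 1 array it ranged from 0.69 to 1.11, with adjusted p up to 0.216. It was called at the same size without SKP array 2 (adjusted p = 0.0483) or SKP array 3 (adjusted p = 0.0213), both of which enter only the estimate of the spread.

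Nfasc, whose glial isoform anchors the paranodal junction, had values of 5.55, 6.04 and 6.92 in SKPs, 8.30, 6.48 and 6.21 in SKP-derived Schwann cells, and 6.68, 6.69 and 6.38 in nerve Schwann cells. The groups overlapped, and SKP-derived array 1 stood alone above all others. The difference from SKPs was 0.83 in SKP-derived Schwann cells (95% interval -0.33 to 1.98, adjusted p = 0.229) and 0.41 in nerve Schwann cells (95% interval -0.75 to 1.57, adjusted p = 0.503; -0.16 after cyclic loess). Without SKP-derived array 1 the first of these was 0.18 (adjusted p = 0.733). The Schwann cell groups differed by 0.41 (95% interval -0.74 to 1.57, adjusted p = 0.527; 0.91 after cyclic loess), and by -0.24 without that array. A single feature cannot separate the glial from the neuronal isoform.

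Ncam1, the neural cell adhesion molecule, had values of 7.54, 8.23 and 9.26 in SKPs, 10.62, 10.72 and 10.54 in SKP-derived Schwann cells, and 10.61, 9.98 and 10.45 in nerve Schwann cells. The Schwann cell arrays kept within a narrow band, and the SKP arrays spread widely. Ncam1 rose by 2.28 in SKP-derived Schwann cells (SE 0.37, 4.87-fold, adjusted p = 0.000987) and by 2.00 in nerve Schwann cells (SE 0.37, adjusted p = 0.0012; 1.76 after cyclic loess). The Schwann cell groups differed by 0.28 (95% interval -0.54 to 1.11, adjusted p = 0.549; 0.46 after cyclic loess). SKP array 3 was the highest SKP array for Nrcam, Nfasc and Ncam1. That array also had the lowest means among SKPs of the fibroblast markers (10, against 11.89 and 11.79) and the macrophage markers (5.52, against 7.73 and 6.19). Its mean of 8 neuronal markers was the highest (6.64, against 6.03 and 5.73), while its Schwann cell markers (5.41) were not higher. Of these neuronal markers Nefm, Snap25, Tubb3 and Stmn2 were highest in that array, Nefl and Rbfox3 lowest, and Syt1 and Elavl4 in between. Over the Schwann cell arrays the neuronal mean was 6.23 to 7.35. The mean of 6 melanocyte markers was also highest among SKPs in SKP array 3 (6.69, against 6.1 and 6.53). Of these, Mlana (9.85, against 6.66 and 6.9) and Tyrp1 were highest in that array. Mitf and Slc45a2 were lowest, and Tyr and Kit in between. The part of these markers in the result was not tested. Without SKP array 3 the rise of Ncam1 was 2.74 in SKP-derived and 2.46 in nerve Schwann cells.

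Cadm4, the nectin-like molecule of the Schwann cell surface, had values of 6.06, 6.10 and 6.31 in SKPs, 10.81, 9.51 and 10.32 in SKP-derived Schwann cells, and 10.42, 10.37 and 11.14 in nerve Schwann cells. All Schwann cell arrays were far above the tight SKP values. It rose by 4.06 in SKP-derived Schwann cells (SE 0.32, 16.7-fold, adjusted p = 1.82e-05) and by 4.49 in nerve Schwann cells (SE 0.32, adjusted p = 9.98e-06; 4.23 after cyclic loess). The Schwann cell groups overlapped and differed by -0.43 (95% interval -1.14 to 0.29, adjusted p = 0.29; -0.18 after cyclic loess).

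Cadm1, a more widely expressed nectin-like molecule, had values of 7.53, 7.28 and 7.08 in SKPs, 8.76, 8.49 and 9.29 in SKP-derived Schwann cells, and 9.01, 9.14 and 9.30 in nerve Schwann cells. The rise was 1.55 in SKP-derived Schwann cells (SE 0.21, 2.93-fold, adjusted p = 0.000402) and 1.85 in nerve Schwann cells (SE 0.21, adjusted p = 0.000106; 1.57 after cyclic loess). It was thus the smallest of the 6 rises in each comparison with SKPs. The Schwann cell groups differed by -0.30 (95% interval -0.78 to 0.17, adjusted p = 0.262), and by 0.00 after cyclic loess. Without SKP-derived array 3 the difference was -0.52 and called (adjusted p = 0.0486).

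Igsf11, a homophilic adhesion molecule first known from brain and testis, had values of 6.33, 6.42 and 6.68 in SKPs, 12.90, 11.87 and 12.87 in SKP-derived Schwann cells, and 13.03, 12.96 and 13.09 in nerve Schwann cells. It rose by 6.07 in SKP-derived Schwann cells (SE 0.26, 67.0-fold, adjusted p = 9.18e-07) and by 6.55 in nerve Schwann cells (SE 0.26, 93.4-fold, adjusted p = 5.18e-07; 6.33 after cyclic loess). These were the largest rises among the 8 members. Every SKP-derived array was below every nerve array, which 62.3% of all genes also showed in one direction or the other. The difference of -0.48 (95% interval -1.05 to 0.10, adjusted p = 0.151; -0.38 after cyclic loess) was close to the shift of the median gene as deposited and was not called.

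Thy1 varied more within groups than any other member. Its values were 12.56, 11.90 and 9.92 in SKPs, 7.29, 11.27 and 9.78 in SKP-derived Schwann cells, and 6.98, 8.02 and 6.46 in nerve Schwann cells. All nerve arrays were below all SKP arrays, whereas the SKP-derived arrays reached from the nerve range into the SKP range. Thy1 lay 4.30 below its SKP level in nerve Schwann cells (log2 difference -4.30, SE 0.97, adjusted p = 0.00366; -4.55 after cyclic loess, adjusted p = 0.00545). In SKP-derived Schwann cells the difference from SKPs was -2.01 (95% interval -4.19 to 0.17, adjusted p = 0.126). It was -2.92 and called without SKP-derived array 2 (adjusted p = 0.0351), and -2.78 and called without SKP array 3 (adjusted p = 0.0461). Without SKP-derived array 1 it was -0.93 (adjusted p = 0.402), the smallest of the fits without 1 array. SKP-derived exceeded nerve Schwann cells by 2.29 (95% interval 0.11 to 4.47, adjusted p = 0.0809; 2.51 after cyclic loess, adjusted p = 0.214). This difference was 3.37 and called without SKP-derived array 1 (adjusted p = 0.0159), 1.38 without SKP-derived array 2 (adjusted p = 0.259) and 0.62 with array weights (adjusted p = 0.466).

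Within each group the Thy1 values had the same order as the mean of the 11 fibroblast markers. That mean was 7.86, 9.88 and 8.82 in SKP-derived Schwann cell arrays 1 to 3, 8.95, 9.70 and 8.61 in the nerve arrays, and 11.89, 11.79 and 10 in the SKP arrays. The array with most Thy1 among SKP-derived Schwann cells, array 2, also had their lowest mean of Schwann cell markers (9.73, against 10.66 and 10.36) and their lowest L1cam, Nrcam, Cadm1, Cadm4 and Igsf11. Ncam1 and Nfasc were exceptions. Ncam1 had its highest SKP-derived value in that array, and Nfasc (6.48) lay there between its values in the other SKP-derived arrays (8.3 and 6.21). Relative to SKPs, 7 of the 11 fibroblast markers were called lower in nerve Schwann cells, where 14.9% of all genes were. In SKP-derived Schwann cells 8 were called lower, where 22.3% of all genes were. The other fibroblast markers were not called in either direction. The part of fibroblasts in the Thy1 differences was not tested. Without SKP-derived array 2 the rises in SKP-derived Schwann cells over SKPs were 5.21 for L1cam, 4.41 for Cadm4 and 6.40 for Igsf11.

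**Figure D2:**
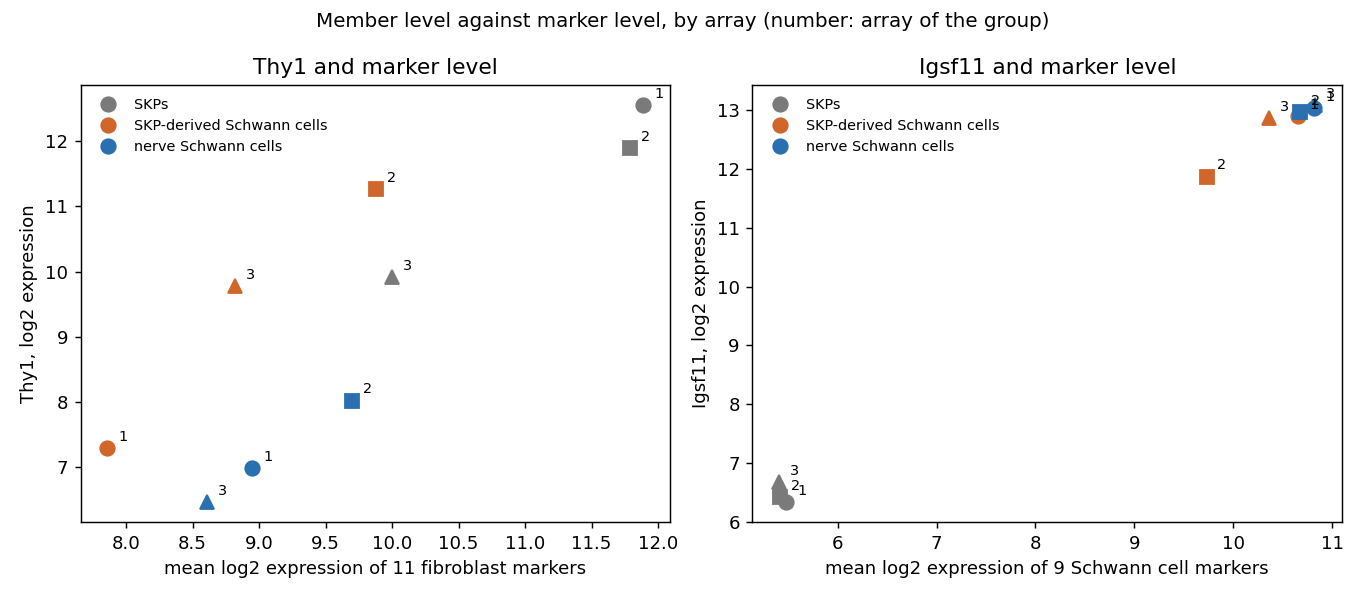
Left, log2 expression of Thy1 (vertical axis) against the mean log2 expression of 11 fibroblast markers (horizontal axis) in each array. Right, Igsf11 against the mean of 9 Schwann cell markers. Points are single arrays, numbered within their group. Within each group the Thy1 points rise with the fibroblast markers, and SKP-derived array 2 has the lowest Igsf11 (11.87) and Schwann cell marker mean (9.73) of the Schwann cell arrays.

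The comparison between the Schwann cell groups left 7 of the 8 members without a call. After cyclic loess limma called 0 of 8, where 1.33% of all genes were called. An unadjusted p under 0.05 was found for 3 of 8, which was also the count as deposited. The share of all genes under that threshold is not given here, so this count does not set the members apart. The intervals given above are wide for Thy1 and Nfasc and do not show that the groups are alike on them. For Cadm1, Cadm4 and Igsf11 the intervals as deposited reach no farther than -1.14 on the lower side and 0.29 on the upper side. The median gene differed by -0.45 on that scale. After cyclic loess the estimates of these members were 0.00, -0.18 and -0.38, for which no intervals are given. Cadm1, L1cam, Cadm4 and Igsf11 were higher in nerve cells by their means as deposited, and Nrcam, Nfasc, Ncam1 and Thy1 in SKP-derived cells.

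**Figure D3:**
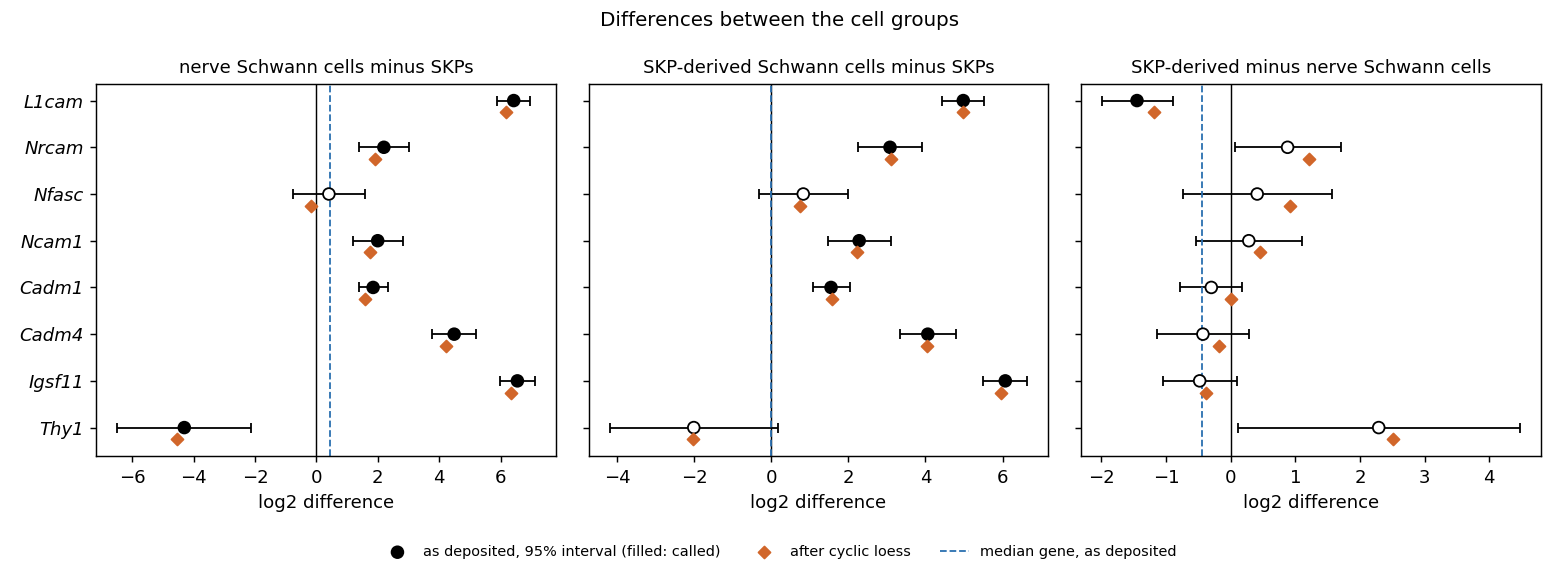
Log2 difference (horizontal axis) of each member (vertical axis) in the 3 comparisons. Circles are limma estimates from the deposited values with 95% intervals (filled where called), diamonds are estimates after cyclic loess, and the dashed line is the median gene as deposited. L1cam, Nrcam, Ncam1, Cadm1, Cadm4 and Igsf11 lie to the right of the median gene in both comparisons with SKPs, and L1cam has the single filled circle between the Schwann cell groups.

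The 2 genes whose profile over the 9 arrays was most like that of each member were found by Pearson's r among all 14506 genes. Igsf11 was nearest to Plekhb1 (r = 0.999) and to Erbb3, through which neuregulin acts on Schwann cells (r = 0.998). L1cam was nearest to Gab1, a docking protein of receptor tyrosine kinases (r = 0.998), and Tmod2, which caps actin filaments (r = 0.997). Cadm4 was nearest to Edc3 (r = 0.995) and Stard3nl (r = 0.994), Cadm1 to Arl2bp and Zfp207 (r = 0.989 each) and Nrcam to Tmx2 (r = 0.987) and Fam76b (r = 0.980). Ncam1 was nearest to Marcks (r = 0.982) and Sft2d1 (r = 0.981), Thy1 to the membrane metalloproteinase gene Mmp16 (r = 0.965) and to Reep4 (r = 0.956), and Nfasc to Ddn (r = 0.874) and Rhox5 (r = 0.861). The arrays fall into 3 groups, so any gene with the same group means has a high r.

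Other immunoglobulin adhesion genes moved in either direction. Of 60 listed genes 54 were measured. From SKPs to SKP-derived cells 14 rose and 13 fell (13 and 14 after cyclic loess), against 19.3% and 22.3% of all genes, with a median of 0.06. In nerve Schwann cells 32 were higher and 7 lower than in SKPs as deposited (49.7% and 14.9% of all genes), with a median of 0.63, against 0.46 over all genes. After cyclic loess 14 were higher and 10 lower (22.4% and 25.6% of all genes), with a median of 0.19, against -0.03 over all genes.

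Several close relatives of the members had large changes. Cadm3, the nectin-like partner of Cadm4 known from axons, had values of 5.95, 5.46 and 5.28 in SKPs, 11.46, 9.89 and 9.02 in SKP-derived Schwann cells, and 11.69, 11.84 and 11.76 in nerve Schwann cells. It rose by 4.56 in SKP-derived Schwann cells (adjusted p = 0.00011) and by 6.2 in nerve Schwann cells (adjusted p = 1.81e-05). The 3 SKP-derived arrays differed widely on it, and array 1 lay close to the nerve arrays. Mcam, an adhesion molecule of vessels and Schwann cells, rose by 5.14 (adjusted p = 8.4e-07) and 5.19 (adjusted p = 6.14e-07). Mag, the myelin-associated sialic acid binding glycoprotein, rose by 4.97 (adjusted p = 1.4e-05) and 3.83 (adjusted p = 4.7e-05). Ncam2, the closest relative of Ncam1, rose by 3.91 in nerve Schwann cells (adjusted p = 1.36e-05) and by 2.77 in SKP-derived Schwann cells.

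On the side of the SKPs were Clmp, Cdon and Cntn1. Clmp, a molecule of the family of the coxsackievirus and adenovirus receptor, had values of 12.39, 12.37 and 11.97 in SKPs against 6.92 to 9.09 in the 6 Schwann cell arrays. It fell by 4.35 in SKP-derived Schwann cells (log2 difference -4.35, adjusted p = 0.000132), and was 4.12 lower in nerve Schwann cells (log2 difference -4.12, adjusted p = 0.000128). Its highest Schwann cell value, 9.09, was in SKP-derived array 2. Cdon, a coreceptor for hedgehog ligands, differed by -2.79 (adjusted p = 0.00067) and -2.58 (adjusted p = 0.000619), and Cntn1, a contactin that binds Nfasc across the paranode, by -2.68 (adjusted p = 0.000809) and -2.57 (adjusted p = 0.000616). Among the IgLON genes, lipid-anchored adhesion molecules of neurons, Ntm rose by 3.38 in SKP-derived and 3.56 in nerve Schwann cells and Opcml by 2.00 and 2.48. For the other two, Lsamp and Negr1, the difference in nerve Schwann cells (0.64 and 1.26) was called as deposited, and not after cyclic loess (-0.11 and 0.57, adjusted p = 0.474 and 0.0773).

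Between the Schwann cell groups 30 of these 54 genes were lower and 2 higher in SKP-derived cells as deposited, where 42.3% of all genes were lower and 1.33% higher. Without nerve array 1, 2 or 3 the calls numbered 19, 18 and 21, counts given without the share of all genes. After cyclic loess, with 1.33% of all genes called, limma called 0 of 54. An unadjusted p under 0.05 was found for 13, a count given without the share of all genes. As deposited, the falls of largest size were Cd200 (-1.72, adjusted p = 0.00957), Cadm3 (-1.64, adjusted p = 0.0257) and Cxadr (-1.41, adjusted p = 0.0193), and after cyclic loess these differed by -1.29, -1.40 and -0.88. The rises were Mag (1.15, adjusted p = 0.0334) and Mpzl1 (0.59, adjusted p = 0.0358), at 1.47 and 0.70 after cyclic loess (adjusted p = 0.0929 and 0.111).

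Genes whose products bind, anchor, modify or cleave the members were measured for 40 of 45 listed. From SKPs to SKP-derived cells 12 rose and 11 fell, against 19.3% and 22.3% of all genes (10 and 11 after cyclic loess, against 18.6% and 23.9%). In nerve Schwann cells 23 were higher and 8 lower than in SKPs, against 49.7% and 14.9% of all genes (15 and 10 after cyclic loess, against 22.4% and 25.6%). As deposited, the median partner gene differed by 0.23 and 0.68, against -0.01 and 0.46 over all genes.

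Among the adaptors below the membrane, Ank3, the ankyrin of nodes and initial segments that binds L1 family molecules, had values of 6.28, 6.12 and 5.74 in SKPs, 10.52, 9.43 and 10.18 in SKP-derived Schwann cells, and 11.38, 11.22 and 11.25 in nerve Schwann cells. It stood in the same order of groups as L1cam. It rose by 4.0 (adjusted p = 7.14e-06) and 5.24 (adjusted p = 1.92e-06), and was lower in SKP-derived than in nerve Schwann cells (-1.24, adjusted p = 0.00635; -1.0 and not called after cyclic loess, adjusted p = 0.0833). Of the other ankyrins, Ank1 rose by 0.66 in SKP-derived Schwann cells (adjusted p = 0.0104) and Ank2 differed by 0.77 (adjusted p = 0.0538). In nerve Schwann cells Ank1 rose by 1.2 (adjusted p = 0.000268), and Ank2 differed by 0.75, called as deposited (adjusted p = 0.0417) and not after cyclic loess (0.47, adjusted p = 0.223). Epb41l3, a band 4.1 protein that binds Cadm tails at the internode, rose by 2.69 in SKP-derived and 3.07 in nerve Schwann cells.

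The 3 proteins that link membranes to actin did not move as one. Ezr (ezrin) rose by 1.65 in each kind of Schwann cell over SKPs (adjusted p = 8.79e-05 and 6.52e-05), and Msn (moesin) fell by 1.79 in SKP-derived Schwann cells (log2 difference -1.79, adjusted p = 0.000206) and was 1.60 lower in nerve Schwann cells (log2 difference -1.60, adjusted p = 0.000248). Rdx (radixin) differed by 0.23 in SKP-derived Schwann cells (adjusted p = 0.21), and by 0.35 in nerve Schwann cells, called as deposited (adjusted p = 0.0464) and not after cyclic loess (0.12, adjusted p = 0.438). Afdn, the afadin adaptor of nectins, fell by 2.70 in SKP-derived Schwann cells (log2 difference -2.70, adjusted p = 8.44e-06). In nerve Schwann cells it was 2.19 lower than in SKPs (log2 difference -2.19, adjusted p = 2.18e-05).

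The enzymes that put polysialic acid on Ncam1 changed in opposite directions. St8sia4 had values of 7.14, 7.32 and 6.62 in SKPs, 5.26, 5.31 and 5.27 in SKP-derived Schwann cells, and 5.71, 5.99 and 5.77 in nerve Schwann cells. It was lower than in SKPs in SKP-derived (-1.75, adjusted p = 8.83e-05) and nerve Schwann cells (-1.21, adjusted p = 0.000435). St8sia2 had values of 5.29, 5.49 and 4.99 in SKPs, 6.19, 6.14 and 7.93 in SKP-derived Schwann cells, and 6.49, 7.70 and 7.92 in nerve Schwann cells. It rose by 2.11 in nerve Schwann cells (adjusted p = 0.00474) and by 1.5 in SKP-derived Schwann cells (adjusted p = 0.0373), where the call ended after cyclic loess (adjusted p = 0.0567). St8sia3, an enzyme with other preferred targets, differed by 0.09 in SKP-derived Schwann cells (adjusted p = 0.697), and by 0.59 in nerve Schwann cells, called as deposited (adjusted p = 0.0112) and not after cyclic loess (-0.14, adjusted p = 0.424).

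Among partners at the membrane or outside it, Gfra1, the GDNF coreceptor that also binds Ncam1, rose by 4.96 (adjusted p = 9.12e-06) in SKP-derived and 5.14 (adjusted p = 7.23e-06) in nerve Schwann cells. Ptn, the secreted growth factor pleiotrophin, rose by 3.69 (adjusted p = 0.000187) and 4.54 (adjusted p = 4.66e-05). Fgfr1, a growth factor receptor that L1cam and Ncam1 can engage, fell by 2.03 in SKP-derived Schwann cells (log2 difference -2.03, adjusted p = 7.44e-05). In nerve Schwann cells it was 1.43 lower than in SKPs (log2 difference -1.43, adjusted p = 0.000332). Itgb5, a subunit of integrins that bind Thy1, fell by 2.39 in SKP-derived Schwann cells (log2 difference -2.39, adjusted p = 9.54e-05) and was 3.00 lower in nerve Schwann cells (log2 difference -3.00, adjusted p = 2.44e-05). Gldn (gliomedin), the Schwann cell ligand of Nfasc and Nrcam at the node, had values of 10.80, 9.61 and 8.40 in SKPs, 11.70, 11.59 and 10.74 in SKP-derived Schwann cells, and 9.52, 10.02 and 9.49 in nerve Schwann cells. It was highest on average in the SKP-derived cells, with SKP array 1 inside their range, by 1.74 over SKPs (adjusted p = 0.023) and by 1.67 over nerve Schwann cells (adjusted p = 0.0281; 1.80 and not called after cyclic loess, adjusted p = 0.127).

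Between the Schwann cell groups 15 of the 40 partner genes were lower and 1, Gldn, was higher in SKP-derived cells as deposited, where 42.3% and 1.33% of all genes were. Leaving out any 1 nerve array left 7 calls, and leaving out SKP-derived array 2 left 10, counts given without the share of all genes. After cyclic loess limma called 0 of 40, where 1.33% of all genes were called. An unadjusted p under 0.05 was found for 9, a count given without the share of all genes. Besides Ank3, the falls of largest size as deposited were Sdc4, a syndecan (-1.07, adjusted p = 0.00449; -0.99 after cyclic loess), and Nrp1, a coreceptor of L1cam for semaphorins (-0.97, adjusted p = 0.00358; -0.63 after cyclic loess).

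**Figure D4:**
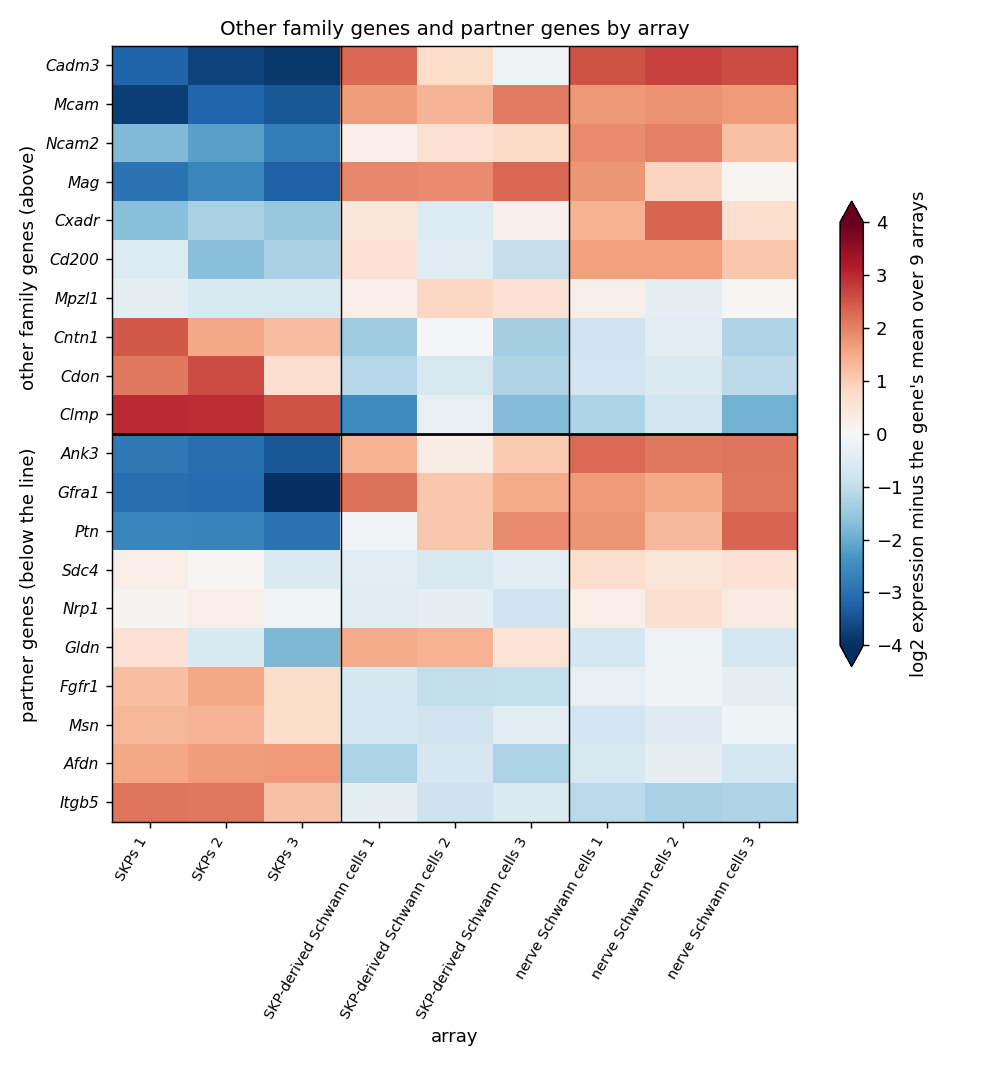
Log2 expression minus the gene's mean over the 9 arrays (colour scale, cut at -4 and 4) of the other family genes (above the line) and partner genes (below) that the naming rule picked, in each array (horizontal axis). Cadm3, Mcam, Mag, Ank3, Gfra1 and Ptn are below their mean in all 3 SKP arrays, and Clmp, Cdon, Cntn1 and Itgb5 are above it.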

How the data were processed

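The authors deposited log2 expression values. The submitters' processing notes name RMA, which adjusts background, scales arrays to each other and combines probes, and Affymetrix Expression Console. Program versions, a build, and whether all 9 arrays went through RMA together were not given in the sources used here. Features were named from the platform annotation. Features with more than 1 symbol (323) or without any (13581) were not used, and the brightest of several features stood for a gene. Detection calls were not used here, and precision is limited by the number of arrays.

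Group means were fitted to all 9 arrays with limma 3.58.1 (lmFit, eBayes) in R 4.3.3, with Benjamini-Hochberg adjustment over 14506 genes. Intervals are 95% intervals from the same fit. The code was tested on simulated data. Replicate numbers were not used as a block, since the labels do not state that same-numbered arrays are paired. Deviations of same-numbered arrays correlated at -0.124 to 0.289.

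The members, the lists of 60 other family genes, 45 partner genes and markers, and the alternatives were chosen with earlier results of these data known. Text names all members, up to 3 called list genes with the largest rise and 3 with the largest fall per comparison whose groups do not overlap, and the 2 genes nearest to each member. Ncam2 in SKP-derived cells, Fgfr1 in nerve cells, the IgLON genes, ankyrins, Epb41l3, ezrin and its relatives and the polysialyltransferases were added after their values were seen. Marker lists of endothelium, melanocytes, smooth muscle and keratinocytes, of which 7, 6, 8 and 5 genes were measured, had mean levels of 4.98 to 6.03, 5.68 to 6.69, 6.27 to 7.06 and 4.54 to 5.48 over the 9 arrays.

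Alternatives were 3 other scalings, a filter on dim genes, other choices of features, variance models, array weights, a replicate block, other thresholds and leaving out each array. Promoter letters come from RefSeq, build GRCr8.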

Additional observations from a re-analysis of the deposited data

Results flagged for a closer look

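L1cam was the one member called by the test of the contrast between the 2 kinds of Schwann cell. A member without a call there is not shown to be alike in both. L1cam differed from SKPs by 6.43 in nerve and 4.98 in SKP-derived Schwann cells. The log2 difference between these groups was -1.45 (limma adjusted p = 0.00315), against -0.45 for the median gene, where 43.7% of all genes were called. All 3 SKP-derived arrays lay below all 3 nerve arrays, and the groups did not overlap for 62.3% of all genes. After cyclic loess the L1cam difference was -1.19 (adjusted p = 0.0505), where 1.33% of all genes were called.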

How the results depend on the processing

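Over the alternatives that left out no array, 275 of 285 member differences kept their direction and their side of the threshold. The differences that turned sign had not been called: Nfasc in nerve cells against SKPs (-0.16 after cyclic loess, -0.23 after quantile normalisation), and between the Schwann cell groups Cadm1 (0.05 after median centring) and Cadm4 (0.06 with array weights), and Nfasc without SKP-derived array 1 (-0.24, with 0.81 as the highest value without 1 array). With array weights Nfasc (1.76) and Thy1 (-3.70) were called in SKP-derived cells against SKPs, where 44.2% of all genes were called. Between the Schwann cell groups array weights called 3 members and 63.6% of all genes. A fit of those 2 groups alone called 2 members and 51% of all genes, and cyclic loess 0 members and 1.33%. Without single arrays 1 to 2 members were called there, a count given without the share of all genes.

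For the other family genes, scaling moved the count in the comparisons with nerve cells by over 1.5 times, median centring against SKPs excepted. With nerve cells against SKPs (39 as deposited, where 64.6% of all genes were called) cyclic loess gave 24 and quantile normalisation 25 (48% of all genes each). The brighter genes alone gave 14 of 22 tested (57.9% of all brighter genes), and a 2-fold minimum 23. With SKP-derived cells against SKPs (27, and 25 to 28 under the other scalings) the brighter genes gave 13 (57.7% of all brighter genes) and the 2-fold minimum 17. Between the Schwann cell groups (32) median centring gave 2 (3.67% of all genes), cyclic loess 0 (1.33%), quantile normalisation 1 (1.65%) and the brighter genes 3 (8.27% of all brighter genes). A threshold of 0.01 gave 15 and the 2-fold minimum 7. Single arrays left out gave 18 to 37, with 19, 18 and 21 without nerve array 1, 2 or 3.

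Partner genes gave 18 with the 2-fold minimum in nerve cells against SKPs (31), and 15 at 0.01 in SKP-derived cells (23). Between the Schwann cell groups (16) they gave 0 after median centring, 0 after cyclic loess, 1 after quantile normalisation and 5 for the brighter genes. The shares of all genes under these settings are those given above. Partner genes gave 5 at 0.01, 3 with the 2-fold minimum and 7 to 20 without single arrays (7 without nerve array 1, 2 or 3, 10 without SKP-derived array 2). For the 0.01 threshold, the 2-fold minimum and the fits without single arrays, the shares of all genes are not given here. Those counts therefore do not set either list apart. Fewer genes tested or a stricter rule lower a count by construction. The cause of the other changes was not tested.

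With the replicate number as a block, 7, 6 and 1 members were called in the 3 comparisons, as without it, and 37, 26 and 30 other family genes. The shares of all genes called with the block are not given here, so these counts do not set the lists apart. Of 6 arrays per comparison 2, 2 and 4 correlated best with their own number. So few arrays cannot show whether the numbers pair samples.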
